A study of Mus musculus with 9 samples.

Results

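Transcript levels of 10 genes of MHC class I antigen presentation were compared between mouse squamous cell carcinoma (SCC) cells that differ in focal adhesion kinase (FAK). The genes were chosen by name for their roles and matched by Ensembl identifier, and all 10 were among the 19044 genes measured. They are the heavy chain genes H2-K1 and H2-D1, the light chain gene B2m, the peptide transport and loading genes Tap1, Tap2 and Tapbp, the immunoproteasome genes Psmb8, Psmb9 and Psmb10, and the regulator Nlrc5. RNA-seq was available for 3 cell lines with 3 biological replicates each (9 libraries). The cells came from skin tumours that FVB mice carrying K14CreER and floxed FAK alleles developed after treatment with dimethylbenz[a]anthracene and 12-O-tetradecanoylphorbol 13-acetate, and FAK was deleted from the tumour cells in culture with 4-hydroxytamoxifen. FAK-/- cells carry this deletion. FAK-WT and FAK-kd cells derive from a FAK-/- clone that received retroviral wild-type FAK or kinase-deficient FAK with the substitution K454R, followed by hygromycin selection. All 3 lines therefore share the tumour origin and the deletion, and each condition is 1 cell line. Against FAK-/- cells, FAK status cannot be told apart from retroviral transduction, selection or drift of a line. FAK-WT and FAK-kd cells both underwent transduction and selection. Between them, the form of FAK cannot be told apart from drift of a line or differences between the transductions. No interferon treatment is named for these cells in the sources used here.

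MHC class I molecules show peptides from inside the cell to cytotoxic T cells. Proteasomes cut proteins into peptides, the Tap1-Tap2 transporter carries the peptides into the endoplasmic reticulum, and tapasin, the product of Tapbp, holds empty heavy chain and light chain pairs at the transporter until a peptide fits. Interferon-gamma is known to raise most of these genes, in part through Irf1, and to swap catalytic proteasome subunits for those of the immunoproteasome, whereas Nlrc5 acts at the SXY elements of class I promoters together with the RFX, CREB/ATF and NF-Y factors. Epithelial tumour cells often keep low levels of this machinery when no interferon is present.

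The promoters of both classical heavy chain genes are shown because H2-D1 and H2-K1 gave different calls between the lines, and the stretch between Psmb9 and Tap1 because Tap1 separated FAK-/- cells from both other lines and shares this stretch with Psmb9, which is transcribed in the opposite direction. All sequences are from RefSeq on GRCm38.p6, 5′ to 3′. The heavy chain stretches are the 250 bases before a RefSeq transcript start, on the gene's own strand (H2-K1, chr17:34000334-34000583, minus strand; H2-D1, chr17:35262844-35263093, plus strand). The H2-D1 stretch lies inside the wider GENCODE gene, which begins at base 35262730 of chromosome 17. The Psmb9-Tap1 stretch likewise lies inside the GENCODE gene of Psmb9 (34181987 to 34187764). The H2-K1 stretch overlaps its own GENCODE gene, which reaches base 34000347. The third stretch holds the 225 bases between the RefSeq starts of Psmb9 and Tap1 (chr17:34187331-34187555) on the strand of Tap1. Capitals mark matches, on either strand, to the NF-kB motif GGGNNTTCC, the interferon regulatory factor motif GAANNGAAA (printed here as TTTCACTTC, its other strand), the core TGACG of the X2 box bound by CREB/ATF factors, and CCAAT or its other strand ATTGG, bound by NF-Y.
H2-K1: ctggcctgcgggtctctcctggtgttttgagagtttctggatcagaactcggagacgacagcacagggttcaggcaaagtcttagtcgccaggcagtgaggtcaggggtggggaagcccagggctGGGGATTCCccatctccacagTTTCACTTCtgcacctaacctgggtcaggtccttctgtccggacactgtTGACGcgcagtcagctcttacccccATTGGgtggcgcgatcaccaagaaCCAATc
H2-D1: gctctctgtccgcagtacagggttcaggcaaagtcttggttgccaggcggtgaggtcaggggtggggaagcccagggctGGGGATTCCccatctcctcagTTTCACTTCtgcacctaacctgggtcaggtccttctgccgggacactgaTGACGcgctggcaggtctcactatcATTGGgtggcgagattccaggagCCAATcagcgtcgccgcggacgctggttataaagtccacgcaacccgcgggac
Psmb9-Tap1: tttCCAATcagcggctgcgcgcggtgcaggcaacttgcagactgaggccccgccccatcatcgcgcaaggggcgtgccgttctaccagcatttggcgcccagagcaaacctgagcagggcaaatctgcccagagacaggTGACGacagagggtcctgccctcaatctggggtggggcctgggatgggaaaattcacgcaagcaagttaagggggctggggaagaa

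The H2-K1 and H2-D1 stretches aligned over 191 bases with 172 identical (90.1%) and 1 gap, and both held the NF-kB, interferon regulatory factor and TGACG matches and a pair of CCAAT matches in the same order. The Psmb9-Tap1 stretch held 1 TGACG and 1 CCAAT match. No marked matches overlapped each other. Over 32851 promoter windows of 250 bases, GGGNNTTCC was found in 4.98%, GAANNGAAA in 6.31%, TGACG in 17.8% and CCAAT in 33.8%. The AP-1 motif TGANTCA, found in 6.75% of windows, was in none of these stretches. The matches are descriptions of the sequence and do not show binding. FVB mice carry the H2 haplotype q, whereas the reference transcripts are those of C57BL/6 mice, haplotype b. Reads of polymorphic class I chains were thus assigned to reference alleles of another strain in all 3 lines alike. Reads that matched no reference allele would go uncounted, and how many did is not known. Levels of H2-K1 and H2-D1 beside each other and beside other genes are therefore uncertain.

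Deposited values are estimated counts per gene. Totals ranged from 25304994 to 37264636 in 8 libraries, but FAK-WT replicate 1 held 779755, which is 2.31% of the median of the others. With 3 counts as the least told from none, that library shows a gene from 3.78 CPM (counts scaled by library total and TMM factor), against 0.0798 to 0.118 CPM in the others. Ptk2, the gene of FAK, followed the labels at 213, 216 and 216 CPM in FAK-WT, 21.8, 23.5 and 19.6 in FAK-/- and 155, 158 and 176 in FAK-kd libraries. Genes were tested with edgeR's quasi-likelihood test in 1 fit of all 9 libraries, and a gene passed at a Benjamini-Hochberg adjusted p of at most 0.05 over all 19044 genes. The study's methods add a fold minimum, a log2 fold change of 1 or more up or down, and counts are given both ways. Ptk2 itself was higher in FAK-WT than in FAK-kd cells (log2 fold change 0.40, SE 0.08, adjusted p = 0.00163, edgeR). These lines therefore differ in Ptk2 level as well as in the kinase substitution. Of 8 keratinocyte markers, Epcam and Trp63 were not among the genes of the table, Krt5, Krt14, Krt18 and Cdh1 had at most 8 counts in any library, and Itgb4 lay between 54.1 and 102 CPM. The basal keratins Krt5 and Krt14, which define squamous epithelium, were thus nearly undetected in every line.

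In all 3 lines the class I genes spanned a wide range of levels, with the light chain at the top and the immunoproteasome genes Psmb8 and Psmb9 near 0. Per transcript length (CPM per kilobase, 3 libraries of a line pooled), B2m stood at 335 in FAK-WT cells, with 393 for FAK-/- and 353 for the FAK-kd line, far over H2-D1 at 60.3, 36.1 and 35.7 and H2-K1 at 22.5, 21.0 and 18.0. Tapbp followed at 13.6, 15.2 and 19.6 CPM per kilobase, changing place with H2-K1 in FAK-kd cells only, where the libraries of both genes did not overlap. Psmb10 came next at 2.41, 2.11 and 1.63, then Tap2 at 0.716, 0.633 and 0.682. Both subunits of the peptide transporter were therefore measured well under the chains they serve, and Tap1 lay lower still at 0.290, 0.0679 and 0.370 CPM per kilobase. In FAK-WT cells the libraries of Tap1 and Nlrc5 and of Psmb9 and Psmb8 overlapped, so that these neighbours in the order did not differ beyond their spread. The same held for Psmb8 and Nlrc5 in FAK-/- cells and for Psmb9 and Psmb8 in FAK-kd cells. Tap2 and Tap1 overlapped in FAK-WT cells through the shallow replicate 1 alone, which held 1 count of each gene. FAK-WT replicates 2 and 3 held 88 and 91 counts of Tap2, against 33 and 25 of Tap1.

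**Figure D1:**
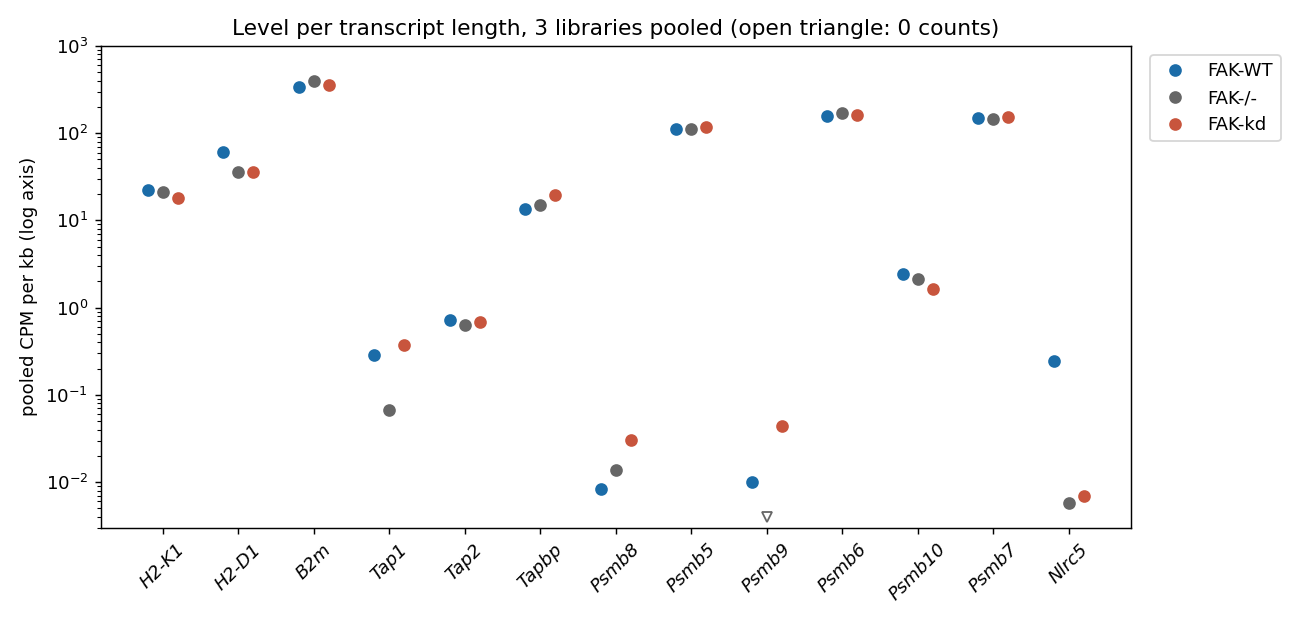
Pooled level per transcript length (CPM per kilobase, log axis) of the 10 class I genes and of the constitutive proteasome genes Psmb5, Psmb6 and Psmb7, 1 point per cell line (3 libraries pooled, no error bars). B2m lies between 335 and 393 in the 3 lines, Psmb8 and Psmb9 lie under 0.05, and Nlrc5 is at 0.248 in FAK-WT cells and under 0.01 in both other lines.

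FAK-WT cells differed from FAK-/- cells in 4 of the 10 genes. H2-D1, Tap1 and Nlrc5 were higher and B2m was lower in FAK-WT cells, and 2 of the 4 (Tap1 and Nlrc5) also passed the fold minimum. Over all genes, 18.0% passed the test in this comparison, 8.01% being higher and 9.96% lower in FAK-WT cells, and 5.38% passed with the fold minimum. Against FAK-kd cells 3 genes passed, with H2-D1 and Nlrc5 higher and Tapbp lower in FAK-WT cells, and 1 of them (Nlrc5) passed the fold minimum, beside 17.7% and 5.26% of all genes (7.58% higher and 10.2% lower). Between FAK-kd and FAK-/- cells 2 genes passed, Tap1 and Tapbp, both higher in FAK-kd cells, and 1 (Tap1) passed the fold minimum, beside 7.84% and 2.01% of all genes (3.97% higher and 3.88% lower in FAK-kd cells). With only 10 genes, whether their share differs from that of all genes was not tested. Both comparisons with FAK-WT cells use the same FAK-WT libraries, and each line enters 2 of the 3 comparisons.

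The 10 genes did not shift together. Leaving out Psmb8 and Psmb9, and Nlrc5 in the last comparison, the median log2 fold change was 0.17 over 8 genes for FAK-WT against FAK-/-, 0.16 over 8 genes for FAK-WT against FAK-kd and -0.01 over 7 genes for FAK-kd against FAK-/- cells, and it was 0 over all 19044 genes each time. Without FAK-WT replicate 1 the counts of genes past the test were 4, 4 and 2, with H2-K1 added against FAK-kd. Of 8 class I genes kept by a low-count filter, the libraries did not overlap for 5 in FAK-WT against FAK-/-, 5 in FAK-WT against FAK-kd and 4 in FAK-kd against FAK-/- cells, beside 42.5%, 47.7% and 35.3% of all 12235 genes kept. In cultured cells sequenced in bulk, fewer expressing cells and less RNA per cell cannot be told apart.

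**Figure D2:**
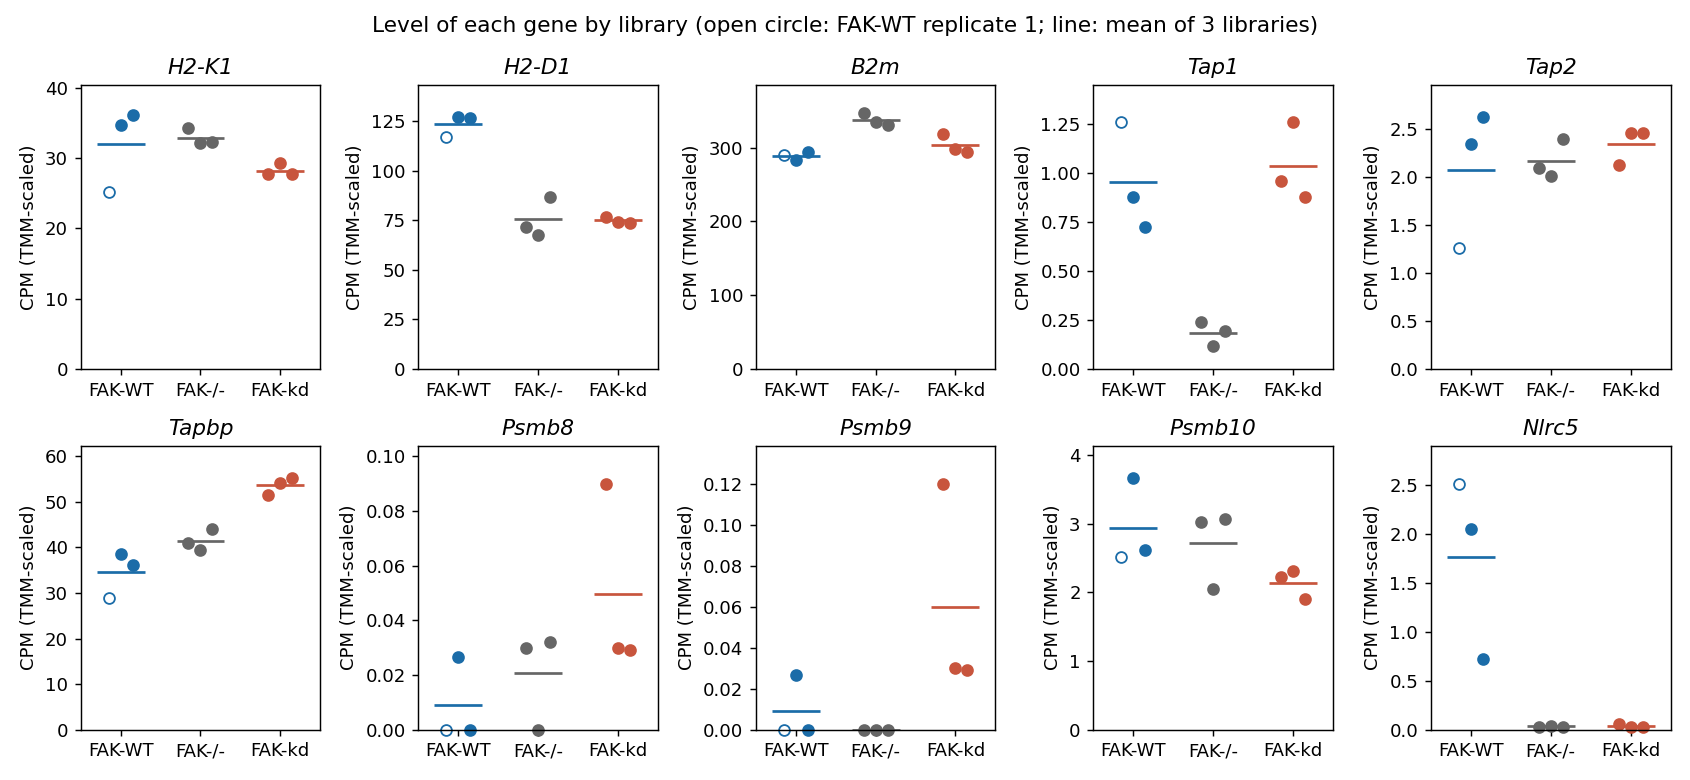
CPM (TMM-scaled, linear axes from 0) of each of the 10 genes in the 9 libraries, grouped by cell line, with a line at the mean of 3 libraries and an open circle for the shallow FAK-WT replicate 1. H2-D1 is between 117 and 127 in FAK-WT libraries and at most 86.8 elsewhere, Tap1 is lowest in the 3 FAK-/- libraries, and Nlrc5 is near 0 outside FAK-WT cells.

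Among the chains, H2-D1, a classical heavy chain gene on chromosome 17 (35262730 to 35267499, GRCm38), was higher in FAK-WT cells than in both other lines. It measured 117, 127 and 126 CPM in FAK-WT replicates 1, 2 and 3, 71.6, 67.8 and 86.8 in FAK-/- and 76.7, 74.4 and 73.9 in FAK-kd libraries. Every FAK-WT library lay over every other library, while the libraries of FAK-/- and FAK-kd cells overlapped. The log2 fold change was 0.73 (SE 0.09, adjusted p = 2.48e-05, edgeR's quasi-likelihood test) against FAK-/- and 0.74 (SE 0.09, adjusted p = 2.19e-05) against FAK-kd cells, a 1.66-fold and a 1.67-fold difference. Between FAK-kd and FAK-/- cells the difference was -0.01 on the log2 scale, with a 95% interval of -0.19 to 0.17. Leaving out any 1 library kept both calls.

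H2-K1, the other classical heavy chain gene measured (chromosome 17, 33996017 to 34000347), did not follow H2-D1. It measured 25.2, 34.7 and 36.2 CPM in FAK-WT, 34.3, 32.1 and 32.3 in FAK-/- and 27.7, 29.3 and 27.7 in FAK-kd libraries. The lowest value of all came from FAK-WT replicate 1, which rests on 20 counts, and the other FAK-WT libraries were the highest. The log2 fold change was 0.06 (95% interval -0.16 to 0.27) against FAK-/- and 0.28 (0.06 to 0.49, adjusted p = 0.0787, edgeR) against FAK-kd cells. Without FAK-WT replicate 1 the second comparison passed, with a log2 fold change of 0.33 and an adjusted p of 0.0172 by edgeR. FAK-kd and FAK-/- libraries did not overlap, with a log2 fold change of -0.22 that did not pass (adjusted p = 0.203, edgeR).

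Because both chains are measured within a library, their share does not depend on library scaling. H2-D1 made up 82.3%, 78.6% and 77.7% of the summed counts of H2-K1 and H2-D1 in FAK-WT, 67.6%, 67.9% and 72.9% in FAK-/- and 73.5%, 71.8% and 72.7% in FAK-kd libraries. The means were 79.5% ± 2.42 (SD, n = 3), 69.5% ± 2.96 and 72.7% ± 0.870. The FAK-WT share was higher than that of either other line in all 3 libraries, with a two-sided exact permutation p of 0.1 for both differences, the smallest that 3 against 3 libraries can give, and p = 0.3 between FAK-kd and FAK-/- cells. For the shallow FAK-WT replicate 1 the exact (Clopper-Pearson) 95% interval of the share, which covers counting error only, ran from 74.0% to 88.8%.

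Counting shares reads between these chains. Of the 31-base words of the transcripts, 26.9% of H2-D1 and 22.8% of H2-K1 also occur in other genes, among them each other and H2-Q7, so that the split between heavy chains is uncertain. Summed over all 17 H2 heavy chain genes of the table, an addition made after the data were seen, the level was 195 ± 14.1 CPM in FAK-WT cells, against 137 ± 10.3 for FAK-/- and 136 ± 2.09 for FAK-kd (mean ± SD, n = 3). FAK-WT libraries did not overlap with the others in this sum (ratios 1.42 and 1.43, exact permutation p = 0.1 each). Without H2-D1 the sum of the other 16 genes was 71.3, 61.9 and 61.0 CPM, and the libraries overlapped (exact permutation p = 0.3 and 0.2). This overlap came from the shallow FAK-WT replicate 1 alone, at 61.7 CPM. FAK-WT replicates 2 and 3 were at 77.8 and 74.4 CPM, over every FAK-/- library (at most 62.5) and FAK-kd library (at most 62.9).

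B2m, the light chain shared by all class I molecules (chromosome 2, 122147686 to 122153083), shares no 31-base words with other genes. It measured 290, 283 and 294 CPM in FAK-WT, 347, 335 and 330 in FAK-/- and 318, 298 and 295 in FAK-kd libraries. FAK-/- libraries were the highest, followed by FAK-kd and FAK-WT libraries, with no overlap between any of the lines. The log2 fold change of FAK-WT against FAK-/- cells was -0.23 (SE 0.06, adjusted p = 0.0223, edgeR), opposite in sign to that of H2-D1. This call was lost without FAK-/- replicate 1 or 2 or FAK-WT replicate 2 or 3, with adjusted p up to 0.141 by edgeR, and in a fit of the 2 lines alone. Against FAK-kd cells the difference was -0.07 (95% interval -0.21 to 0.06).

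In peptide transport, the Tap1 subunit separated FAK-/- cells from both other lines. Tap1 (chromosome 17, 34187553 to 34197225) was counted 1, 33 and 25 times in FAK-WT, 8, 3 and 6 times in FAK-/- and 32, 42 and 30 times in FAK-kd libraries, which is 1.26, 0.878 and 0.721, then 0.240, 0.118 and 0.192, then 0.959, 1.26 and 0.878 CPM. All FAK-/- libraries lay under all others, and FAK-WT and FAK-kd libraries overlapped. The single count of FAK-WT replicate 1 is under the floor of 3 counts, and FAK-/- replicate 2 lies at it. The log2 fold change was 2.11 (SE 0.42, adjusted p = 0.00221, edgeR) in FAK-WT and 2.44 (SE 0.39, adjusted p = 0.00101) in FAK-kd against FAK-/- cells. Between FAK-WT and FAK-kd cells it was -0.33, with a 95% interval of -1.12 to 0.46. Both calls were kept when any 1 library was left out, with log2 fold changes of 1.91 to 2.36 and 2.23 to 2.67.

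Tap2, its partner subunit (chromosome 17, 34203527 to 34216321), measured 1.26, 2.34 and 2.62 CPM in FAK-WT, 2.10, 2.01 and 2.40 in FAK-/- and 2.13, 2.46 and 2.46 in FAK-kd libraries. The lines overlapped in every comparison. Log2 fold changes were 0.15 (95% interval -0.36 to 0.66) for FAK-WT against FAK-/-, 0.03 (-0.47 to 0.54) for FAK-WT against FAK-kd and 0.11 (-0.36 to 0.58) for FAK-kd against FAK-/- cells, so that a change of the size seen for Tap1 lies outside the intervals of both comparisons in which Tap1 passed.

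Tapbp, which encodes tapasin (chromosome 17, 33915899 to 33929292), was highest in FAK-kd cells. It measured 29.0, 38.5 and 36.1 CPM in FAK-WT, 40.9, 39.4 and 44.1 in FAK-/- and 51.4, 54.1 and 55.4 in FAK-kd libraries. The lines were ordered FAK-WT, FAK-/- and FAK-kd with no overlap. FAK-WT cells were lower than FAK-kd cells by a log2 fold change of -0.56 (SE 0.10, adjusted p = 0.000642, edgeR), a call kept without any 1 library. FAK-kd cells were higher than FAK-/- cells by 0.37 (SE 0.09, adjusted p = 0.0191), which was lost without FAK-kd replicate 2 or 3 or FAK-/- replicate 1 or 2 (adjusted p up to 0.128, edgeR). FAK-WT against FAK-/- cells gave -0.19 (95% interval -0.40 to 0.01). Of the 31-base words of Tapbp, 26.9% occur in other genes, chiefly the overlapping Gm19412 on the other strand and Zbtb22 on the same strand. Reads from the overlap with Gm19412 cannot be set apart because the library kit is unstranded. Those from the overlap with Zbtb22 cannot be set apart by strand at all.

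**Figure D3:**
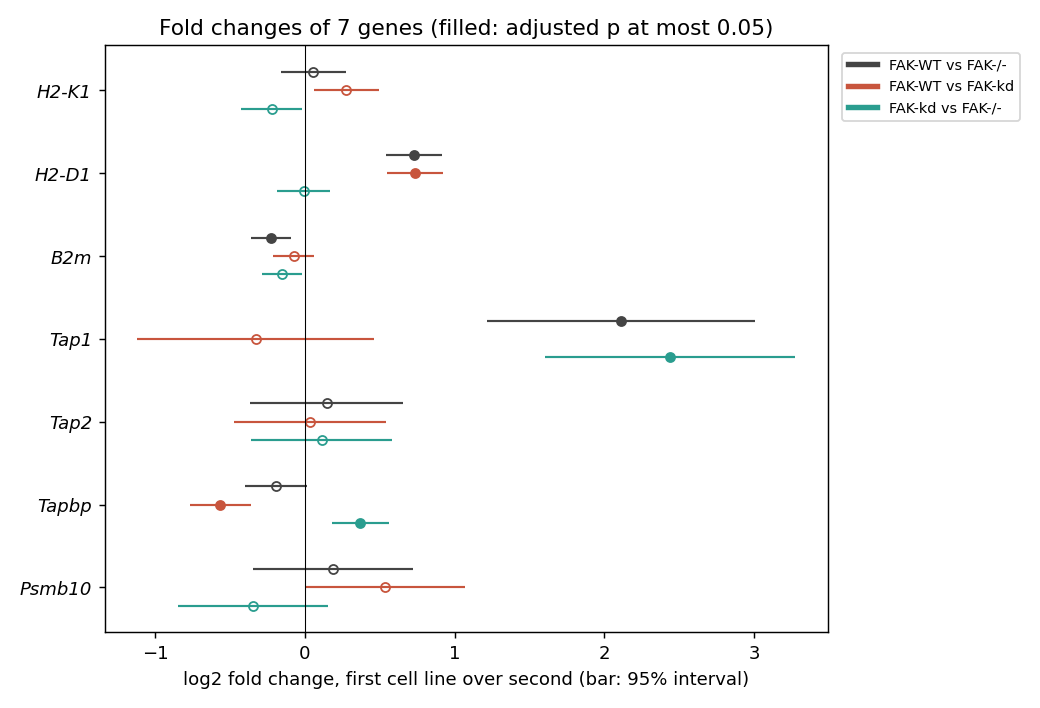
Log2 fold change with 95% interval (edgeR) of 7 class I genes in the 3 comparisons, filled where the adjusted p is at most 0.05. H2-D1 lies at 0.73 and 0.74 in both comparisons with FAK-WT cells, Tap1 at 2.11 and 2.44 in both comparisons with FAK-/- cells, and Tap2 spans 0 throughout. Psmb8, Psmb9 and Nlrc5 are left out because in at least 1 line every library is under the floor of 3 counts. Tap1 is kept, with 8, 3 and 6 counts in FAK-/- libraries.

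Immunoproteasome subunits were rare beside their constitutive partners. Psmb8 (chromosome 17, 34197721 to 34201454) had 8 counts and Psmb9 (chromosome 17, 34181987 to 34187764) had 7 counts over all 9 libraries, with at most 3 and 4 in any library, and 6 of the 7 Psmb9 counts were in FAK-kd libraries. No fold is given for these genes, since at this depth a difference was not detectable. Psmb9 was at 0 counts in all 3 FAK-/- libraries, where the floor of 3 counts lies at 0.0899, 0.118 and 0.0960 CPM. Its exons overlap those of Tap1 on the other strand, which holds 4.79% of its 31-base words.

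The partners that these subunits replace were abundant. Per transcript length and pooled over all libraries, Psmb8 was at 0.0162% of Psmb5 (95% counting interval 0.00698 to 0.0319) and Psmb9 at 0.0120% of Psmb6 (0.00483 to 0.0248). Psmb10 stood at 1.35% of Psmb7 (1.25 to 1.45). Much of Psmb5 (71.7% of its 31-base words) is shared with pseudogenes, which leaves its own level uncertain.

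Psmb10 (chromosome 8, 105935735 to 105938444), the subunit whose partner is Psmb7, was measurable in every line. It measured 2.52, 3.67 and 2.62 CPM in FAK-WT, 3.03, 2.05 and 3.07 in FAK-/- and 2.22, 2.31 and 1.90 in FAK-kd libraries. FAK-kd libraries were under all FAK-WT libraries, and FAK-/- libraries overlapped with both. The log2 fold change was 0.54 (95% interval -0.00 to 1.07, adjusted p = 0.177, edgeR) for FAK-WT against FAK-kd cells and 0.19 (-0.35 to 0.72) against FAK-/- cells. As a ratio to Psmb7 within each library, Psmb10 was at 1.52% ± 0.353 in FAK-WT cells, against 1.44% ± 0.344 for FAK-/- and 1.06% ± 0.0958 for FAK-kd (mean ± SD, n = 3). The exact permutation p of these ratios was 0.1 for FAK-WT against FAK-kd, 0.9 for FAK-WT against FAK-/- and 0.2 for FAK-kd against FAK-/- cells.

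Nlrc5, the transactivator of class I promoters (chromosome 8, 94434356 to 94527272), was detected in FAK-WT cells and stayed at or under the floor elsewhere. It had 2, 77 and 25 counts in FAK-WT, 1, 1 and 1 in FAK-/- and 2, 1 and 1 in FAK-kd libraries. In CPM this is 2.52, 2.05 and 0.721 in FAK-WT libraries and at most 0.0600 in any other. All FAK-WT libraries lay over all others, although the 2 counts of the shallow replicate 1 do not reach its floor and the other FAK-WT libraries differed from each other. Pooled over libraries and scaled to depth, the FAK-WT level was 42.7 times that of FAK-/- cells (104 against 3 counts, 95% counting interval 14.2 to 210) and 35.9 times that of FAK-kd cells (104 against 4 counts, 13.6 to 134). Without FAK-WT replicate 2 these ratios were 22.8 and 19.2, and without replicate 3 they were 61.7 and 51.9. The adjusted p was 2.51e-05 and 2.50e-05 by edgeR's quasi-likelihood test, and both calls were kept without any 1 library. FAK-kd and FAK-/- cells cannot be compared at this depth. Per length, Nlrc5 in FAK-WT cells was at 0.248 CPM per kilobase, close to Tap1 at 0.290. The antisense gene 9330175E14Rik shares 0.579% of its 31-base words.

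Side by side, the class I genes that passed fell into different patterns over the lines. H2-D1 and Nlrc5 were high in FAK-WT cells alone, with differences from FAK-/- and FAK-kd cells of like size for H2-D1. Tap1 was low in FAK-/- cells alone, and Tapbp was highest in FAK-kd cells. B2m was highest in FAK-/- cells. Tap1 and Nlrc5 had at most 77 counts in a library, so that their folds are wider than those of H2-D1, B2m and Tapbp, which had at least 999 counts in each library but FAK-WT replicate 1.

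The other class I and class I-like chains, of which 19 of 22 were in the table, gave 2 calls against FAK-/- cells (18.0% of all genes), 2 against FAK-kd cells (17.7%) and 3 between FAK-kd and FAK-/- cells (7.84%). DESeq2 called 1, 2 and 1 of them. H2-T22 and H2-T23 were higher in FAK-WT cells than in FAK-/- cells, H2-Q4 and H2-T22 were higher in FAK-WT cells than in FAK-kd cells, and between FAK-kd and FAK-/- cells H2-T23 was higher and H2-Q4 and Cd1d1 were lower in FAK-kd cells. H2-Q4, a non-classical heavy chain of the Q region, measured 2.52, 1.68 and 1.85 CPM in FAK-WT, 1.498, 1.66 and 2.02 in FAK-/- and 0.240, 0.569 and 0.322 in FAK-kd libraries. Its log2 fold change was 2.25 (SE 0.36, adjusted p = 0.000358, edgeR) for FAK-WT against FAK-kd and -2.18 (SE 0.34, adjusted p = 0.000833) for FAK-kd against FAK-/- cells, a pattern that none of the class I genes above showed. Of its words, 53.0% occur in other genes, H2-Q6 and H2-D1 among them.

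H2-T22, which encodes a ligand of gamma-delta T cells, measured 18.9, 15.7 and 13.2 CPM in FAK-WT, 9.41, 8.95 and 9.54 in FAK-/- and 10.4, 11.7 and 10.3 in FAK-kd libraries, with FAK-WT libraries over all others. Its log2 fold change was 0.67 (SE 0.12, adjusted p = 0.00117, edgeR) against FAK-/- and 0.46 (SE 0.12, adjusted p = 0.0164) against FAK-kd cells. The second of these calls was lost without FAK-kd replicate 3 or FAK-WT replicate 2. Of the words of H2-T22, 67.4% are shared, chiefly with H2-T10. H2-T10 gave 0.17 (95% interval -0.16 to 0.50) and -0.02 (-0.35 to 0.31) in the same comparisons and did not pass, so that the split of reads between both genes is uncertain. H2-T23, which encodes the Qa-1 chain, followed Tap1 in its calls, with 0.58 (SE 0.19, adjusted p = 0.0480, edgeR) in FAK-WT and 0.68 (SE 0.18, adjusted p = 0.0268) in FAK-kd against FAK-/- cells, but each of these calls was lost in at least 5 of 9 fits without 1 library. Cd1d1, a lipid-presenting chain, was lower in FAK-kd than in FAK-/- cells by -1.56 (SE 0.41, adjusted p = 0.0301, edgeR), which 6 of 9 such fits lost.

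**Figure D4:**
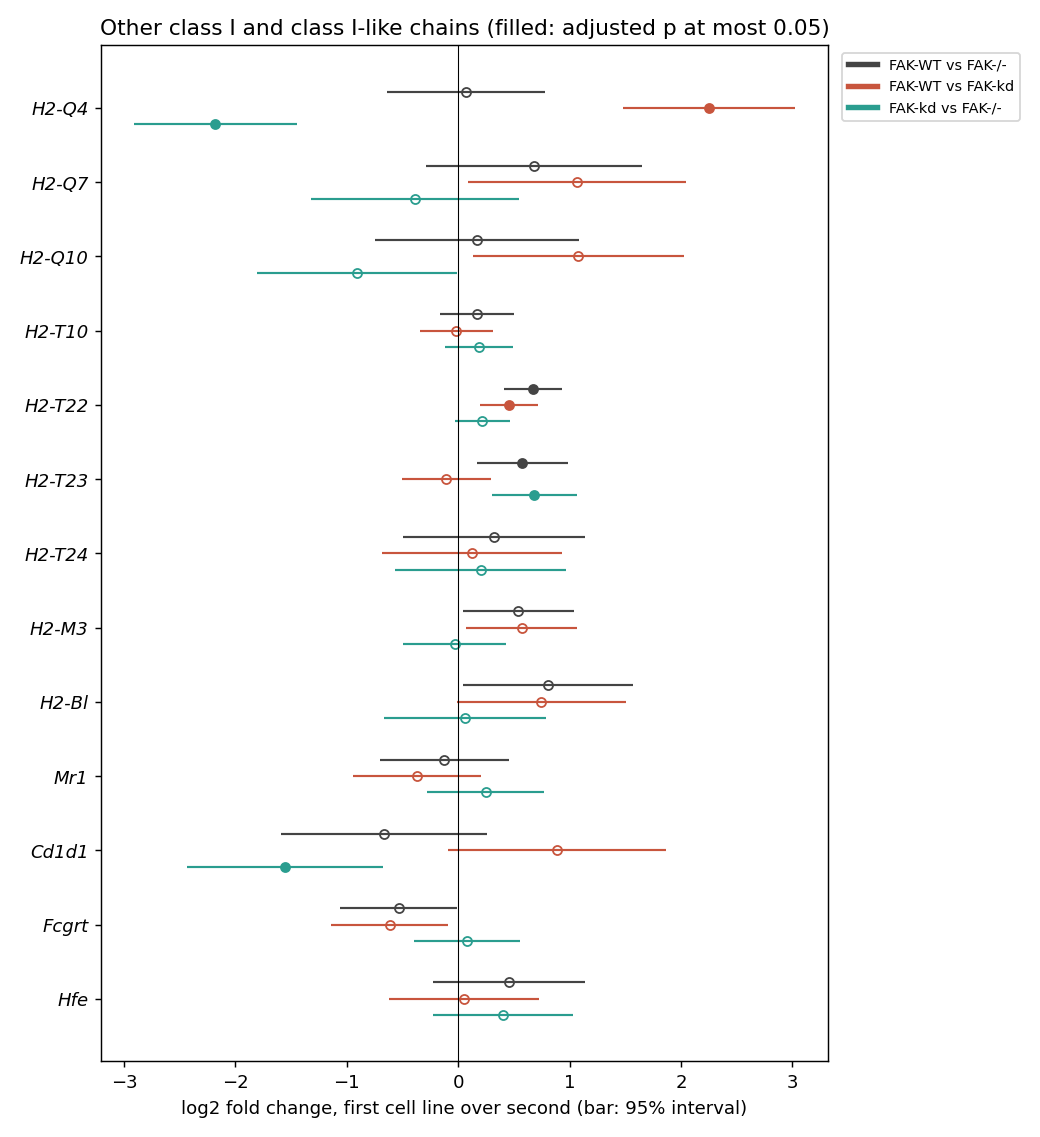
Log2 fold change with 95% interval (edgeR) of 13 other class I and class I-like chains whose normalized counts averaged 10 or more, in the 3 comparisons, filled where the adjusted p is at most 0.05. H2-Q4 stands apart in FAK-kd cells, at 2.25 and -2.18, and H2-T22 is filled in both comparisons with FAK-WT cells.

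Of 8 genes of peptide loading and trimming, 3 were higher in FAK-WT cells than in FAK-/- cells, 1 was higher in FAK-WT cells than in FAK-kd cells (Calr, a chaperone) and 1 was higher in FAK-kd than in FAK-/- cells (Tapbpl). DESeq2 called 3, 4 and 0 of these 8, so that the last 2 counts depend on the tool. Tapbpl, which encodes a tapasin-related peptide editor, gave log2 fold changes of 0.60 (adjusted p = 0.0376, edgeR) in FAK-WT and 0.64 (adjusted p = 0.0348) in FAK-kd against FAK-/- cells, calls that 6 of 9 fits without 1 library lost. The chaperone gene Canx and the aminopeptidase gene Lnpep were higher in FAK-WT cells than in FAK-/- cells, by 0.40 (SE 0.11) and 0.41 (SE 0.11). The Canx call was lost without FAK-WT replicate 2 or 3 (adjusted p up to 0.0816, edgeR) and the Lnpep call without FAK-WT replicate 3 (adjusted p = 0.0895, edgeR). Of 19 constitutive proteasome and activator genes, 2 (Psme3 and Psme4) were higher in FAK-WT cells than in FAK-/- cells, and against FAK-kd cells Psma1, Psma5 and Psme3 were higher and Psma2 was lower. None of the 19 passed between FAK-kd and FAK-/- cells by edgeR or DESeq2, where 3 had an unadjusted p under 0.05. The sizes were small, with log2 fold changes of 0.33 for Psme4 against FAK-/- cells and of 0.28 for Psma5 and -0.29 for Psma2 against FAK-kd cells, and leaving out 1 library lost these calls in 5, 3 and 7 of 9 fits. Over all genes 18.0% passed for FAK-WT against FAK-/-, 17.7% for FAK-WT against FAK-kd and 7.84% for FAK-kd against FAK-/- cells.

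Among the factors that bind or drive class I promoters, 5 of 20 passed against FAK-kd cells (Stat3 higher and Irf1, Nfyb, Atf1 and Stat2 lower in FAK-WT) and 1 passed between FAK-kd and FAK-/- cells (Atf1 higher in FAK-kd), beside 17.7% and 7.84% of all genes. Irf1, which binds the interferon regulatory factor motif marked above, went the other way from H2-D1, at -0.46 (SE 0.10, adjusted p = 0.00557, edgeR; 0.0534 without FAK-WT replicate 3) against FAK-kd and -0.30 (95% interval -0.52 to -0.08, adjusted p = 0.0624) against FAK-/- cells. Rfx5, a partner of Nlrc5 at the X1 box, gave -0.27 (-0.50 to -0.04) and -0.02 (-0.25 to 0.21) and did not pass.

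Among 10 interferon receptor and signalling genes, 2 (Socs1 and Socs3) were lower in FAK-WT cells than in FAK-/- cells, 2 (Jak1 and Socs3) were lower in FAK-WT cells than in FAK-kd cells and 1 (Jak1) was higher in FAK-kd than in FAK-/- cells, beside 18.0%, 17.7% and 7.84% of all genes. Socs3, an inhibitor of cytokine signalling through JAK kinases, measured 16.4, 24.6 and 23.04 CPM in FAK-WT, 39.0, 41.5 and 56.4 in FAK-/- and 44.9, 46.4 and 44.2 in FAK-kd libraries. It was lower in FAK-WT cells by -0.98 (SE 0.14, adjusted p = 0.000121, edgeR) and -0.96 (SE 0.14, adjusted p = 0.000135). Socs1, which inhibits interferon-gamma signalling, was lower than in FAK-/- cells by -0.76 (SE 0.16, adjusted p = 0.00401, edgeR). Tyk2 was listed at 0 in 8 libraries and at 108 counts in FAK-/- replicate 3, and it gets no fold. Of 7 class II genes, H2-Aa, H2-Ab1 and H2-Eb1 were not in the table, and H2-DMb1, a class II peptide editor, was higher in FAK-WT cells than in the FAK-/- line (log2 fold change 1.43, adjusted p = 0.0176, edgeR) and than in FAK-kd cells (1.92, adjusted p = 0.00279), with 0 counts in FAK-WT replicate 1. The first of these calls was not made by DESeq2 and was lost without FAK-/- replicate 2 or FAK-WT replicate 2 or 3 (adjusted p up to 0.195, edgeR), and the second was lost without FAK-WT replicate 3 (0.0535).

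Blood cell and endothelial markers were low throughout, and so were the fibroblast markers in the table other than Pdgfra. Endothelial and fibroblast markers were not even between the lines. The summed level of 4 blood cell markers in the table was at most 1.02 CPM in any library. The 3 endothelial markers summed to 1.26 to 2.05 CPM in FAK-WT, 0.300 to 0.473 in FAK-/- and 0.210 to 0.322 in FAK-kd libraries, where Cdh5 passed in both comparisons with FAK-WT cells. The 3 fibroblast markers in the table summed to 10.1 to 12.9 CPM in FAK-WT, 28.1 to 34.7 in FAK-/- and 19.5 to 30.4 in FAK-kd libraries. Nearly all of this was Pdgfra, which was lower in FAK-WT cells than in both other lines. Col1a1 was at most 1.64 CPM and Dcn at most 0.506 CPM in any library, so that the sum is in effect a single gene. Dcn went the other way, with a higher level in FAK-WT cells than in FAK-/- cells (log2 fold change 2.24, adjusted p = 0.0426, edgeR), a call lost in 5 of 9 fits without 1 library. The 6 keratinocyte markers in the table summed to 55.4 to 72.3, 75.7 to 102 and 76.5 to 96.6 CPM, nearly all of it Itgb4, and Krt8 was higher in FAK-kd than in FAK-/- cells (log2 fold change 2.13, adjusted p = 0.00548, edgeR), as Tap1 was. The part of these shifts in the H2-D1, Nlrc5 and Tap1 results was not tested.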

How the data were processed

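RNA-seq of 9 libraries was analysed, with cell lines and replicate numbers taken from the labels. The authors pseudoaligned paired-end reads of unstranded TruSeq libraries with kallisto 0.43.1, per the labels, summarized transcripts to genes with tximport and removed genes with zero counts. The deposited values are expected counts (kallisto's estimated counts), rounded by the authors and not scaled to library size. The transcriptome release is not given in the sources used here. The total per library sets the precision, and FAK-WT replicate 1 (779755 counts) was kept.

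Counts were scaled by TMM, and edgeR 4.0.16 (R 4.3.3) was fitted to all 19044 genes and 9 libraries with line as sole factor. SE is the log2 fold change over the root of the F statistic. Single values were compared with exact permutation tests (SciPy 1.17.1, two-sided, smallest p 0.1). Symbols (18856 of 19044 matched), positions, lengths and 31-base words shared between genes came from GENCODE on GRCm38, and promoters from RefSeq. Steps were tested on simulated data. Of the class I genes, 8 of 10 have a RefSeq promoter in the table used; Tap2 and Nlrc5 do not. Floors, the intervals of the H2-D1 share and those of ratios of pooled counts cover counting error only. Intervals of log2 fold changes are built from the SE of edgeR's quasi-likelihood fit and so also include spread between libraries. Biological replicates of a line share its origin, so p-values measure the spread between cultures.

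Named genes are the 10 class I genes, Ptk2, Psmb5, Psmb6, Psmb7, Irf1, Rfx5 and, from each other list, genes past the test and the fold minimum whose normalized counts averaged 10 or more, plus the 3 with the largest change among those past the test that averaged 100 or more. Genes named as the members of a count, H2-T10, Tyk2 and the markers were picked with their values in view. Some genes of these lists are not reported here. The class I genes and all lists were chosen with earlier results of these data known. Alternatives were DESeq2 1.42.0, its size factors, library size only, filterByExpr, only the 2 lines compared, a replicate block and each library left out.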

Additional observations from a re-analysis of the deposited data

How the results depend on the processing

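DESeq2, its size factors and library size only gave 4, 3 and 2 class I genes past the test, as the fit of the report did for FAK-WT against FAK-/-, FAK-WT against FAK-kd and FAK-kd against FAK-/- cells. The low-count filter and the fit of only the lines compared gave 4 for FAK-WT against FAK-kd cells, through H2-K1 (adjusted p = 0.0374 and 0.0143, edgeR). The fit of only the lines compared gave 3 for FAK-WT against FAK-/- cells, without B2m (adjusted p = 0.0501, edgeR). Leaving out each library in turn gave 3 to 4, 3 to 4 and 1 to 3 class I genes. Over all genes it gave 2016 to 4393, 2083 to 5355 and 712 to 2211 past the test. Deviations of same-numbered libraries from their line means correlated at a mean r of -0.00768 (9 pairs), against 0.00353 for other pairs (18). No pairing by replicate number was seen. The shallow FAK-WT replicate 1 enters the deviations of all FAK-WT libraries, so that this check cannot exclude pairing. The replicate block gave 4, 3 and 2 class I genes and 3145, 3025 and 1361 of all genes. Signs changed only for log2 fold changes that did not pass. Tap2 in FAK-WT against FAK-kd cells was at -0.016 with the replicate block and ran from -0.076 to 0.081 as each library was left out. H2-K1 in FAK-WT against FAK-/- cells ran from -0.013 (without FAK-WT replicate 3) to 0.11, Psmb10 there from -0.053 (without FAK-WT replicate 2) to 0.36, and H2-D1 in FAK-kd against FAK-/- cells from -0.084 to 0.10 (without FAK-/- replicate 3). The cause was not tested. Depth limits Psmb8, Psmb9 and Nlrc5 outside FAK-WT cells, and FAK-WT replicate 1 cannot show a gene under 3.78 CPM.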
